A study of Mus musculus with 6 samples.

Results

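The genes described are 9 that cells are known to switch on in response to interferon-gamma: the guanylate-binding proteins (GBPs) Gbp2, Gbp3 and Gbp6, the immunity-related GTPases (IRGs) Irgm1, Irgm2, Igtp, Iigp1 and Ifi47, and the chemokine Cxcl9. They were taken from the gene symbol column of the deposited fold-change table, in which 7 rows carry one of these symbols, of 25123 probe sets with a symbol. The symbols are old, and by RefSeq accession the row listed as Gbp6 is the gene now called Gbp7. The gene now called Gbp6 stands under Mpa2l, and Irgm2 under Iigp2. Under current names 8 of the 9 genes have a row, and 9 rows are covered by either naming. Current names are used below, and Igtp was not analysed here.

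The cells were mouse c-kit+ bone marrow progenitors transformed by MLL-AF9, a fusion oncogene of acute myeloid leukaemia, and all 6 samples carry it. They received a second retroviral vector, either the empty pMIG, which expresses GFP, or pMIG-TGIF1, with 3 arrays for each vector. TGIF1 is a homeobox protein that represses transcription. Cells positive for GFP were sorted on day 3, cultured for 1 day and lysed in Trizol, and their RNA was read on Affymetrix whole-transcript gene arrays. Separate transductions or cultures are not stated for the replicates, and the spread behind every p-value may therefore be technical only. The labels give neither the species of the TGIF1 insert nor the number of transformed lines.

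Interferon-gamma binds its receptor, formed by Ifngr1 and Ifngr2, and signalling by the kinases Jak1 and Jak2 reaches promoters through gamma-activated sites (GAS). Factors induced in turn, such as Irf1, bind interferon-stimulated response elements (ISRE), which type I interferon also uses. GBPs and IRGs are GTPases that assemble on vacuoles holding bacteria or parasites and on bacterial surfaces. The Irgm proteins and Igtp keep other IRGs inactive on the cell's own membranes, while Iigp1, Ifi47 and Tgtp1 act as effectors. Cxcl9, Cxcl10 and Cxcl11 attract T and NK cells through the receptor Cxcr3.

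Promoter sequence of part of the family, from 250 bases before to 50 bases after each RefSeq start (build GRCm38.p6), was searched on both strands for an ISRE, spelled as 2 copies of GAAA (TTTC on the other strand) with any 2 bases between them, and for a GAS, spelled TTCNNNGAA, which reads alike on both strands. Windows of Gbp4, Gbp6, Gbp8, Gbp9, Gbp11, Iigp1, Gm4951, Gvin1 and Irgc1 were not used here. Of the 17 GBP and IRG promoter windows that were, 12 held the ISRE letters and 8 the GAS letters. The 17 include 2 windows of Gbp3 and 3 of genes under whose name no row stands. These 3 windows all held both sets of letters. Whether probe sets under other names read these genes was not tested. Among 32851 promoter windows of the mouse table, 3.44% held the ISRE and 8.30% the GAS. Excerpts of 80 bases are printed for genes that rose, that fell and that were not called, and for Igtp, which no row names. Their elements can thus be read side by side. Capitals mark the matches, and each sequence runs 5′ to 3′ on the gene's own strand.
Gbp2, chr3:142620569-142620648, plus strand: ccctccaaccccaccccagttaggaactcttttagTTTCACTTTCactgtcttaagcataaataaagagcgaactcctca
Gbp7, chr3:142530221-142530300, plus strand: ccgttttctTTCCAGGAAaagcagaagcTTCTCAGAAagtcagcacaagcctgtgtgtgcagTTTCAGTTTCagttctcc
Gbp3, chr3:142559967-142560046, plus strand: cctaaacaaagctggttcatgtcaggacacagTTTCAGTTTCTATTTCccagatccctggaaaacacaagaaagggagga
Irgm1, chr11:48871403-48871482, minus strand: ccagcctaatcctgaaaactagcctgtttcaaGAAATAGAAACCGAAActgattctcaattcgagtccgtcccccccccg
Irgm2, chr11:58214872-58214951, plus strand: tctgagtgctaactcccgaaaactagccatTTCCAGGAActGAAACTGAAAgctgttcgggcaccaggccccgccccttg
Igtp, chr11:58199481-58199560, plus strand: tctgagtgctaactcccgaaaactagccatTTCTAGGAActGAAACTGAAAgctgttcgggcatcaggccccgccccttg
Tgtp1, chr11:48992285-48992364, minus strand: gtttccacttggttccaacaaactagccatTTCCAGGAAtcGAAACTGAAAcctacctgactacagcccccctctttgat
Gbp2 carried 1 ISRE match. Gbp3 and Irgm1 each carried 2 overlapping ISRE matches and no GAS match in the window. A second RefSeq start of Gbp3 had neither match in its window. Gbp7 carried 2 GAS matches and 1 ISRE match. In Irgm2, Igtp and Tgtp1 a GAS match was followed after 2 bases by an ISRE match, and the Irgm2 and Igtp excerpts were identical at 78 of 80 bases. The 300-base windows of Cxcl9 and Ifi47 held neither set of letters. A match describes the letters only; binding was not measured.

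The arrays were alike within groups, with correlations of log2 intensity of 0.994 to 0.997 against 0.975 to 0.984 between groups. Of all named probe sets, 24.7% passed limma's test at an adjusted p under 0.05, with 2892 higher and 3308 lower in the TGIF1 arrays. Centring each array on its median shifted every difference by -0.11 on the log2 scale and changed that split to 2179 higher and 4870 lower. The 10 myeloid markers had summed intensities of 26788 to 28235 in pMIG and 29908 to 32740 in pMIG-TGIF1. Elane and Lyz2 made up most of these sums, with pMIG readings of 8524 to 9410 and 8144 to 9419. Cd34 read only 43.1 to 59.3 in pMIG. Of these 10 markers, 2 were called higher, Ptprc and Lyz2, and 3 lower, Mpo, Cd34 and Kit. Of all named probe sets, 11.5% were higher and 13.2% lower. The part of these markers in the results below was not tested. The calls of Mpo, Cd34 and Kit were each lost without pMIG replicate 1 and without 1 or more other arrays (adjusted p up to 0.121).

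The gene introduced by the vector was checked first. Tgif1 read 320, 376 and 408 intensity units with pMIG and 239, 239 and 258 with pMIG-TGIF1. It was thus lower in every array of the group labelled as expressing TGIF1, by 1.49-fold (limma adjusted p = 0.00286). This goes against the label, and whether the mouse probe set can read the vector's transcript was not tested. Directions below are those of the arrays labelled pMIG-TGIF1, called the TGIF1 arrays, against those labelled pMIG.

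By deposited symbol, 3 of the 7 rows were called higher (11.5% of all named probe sets were), 1 was called lower (13.2% of all) and 3 were not called. By current name, 5 of 8 were called higher, 1 lower and 2 not called. The median log2 difference was 0.29 over the 7 rows and 0.37 over the 8, against 0.010 over all named probe sets. The groups did not overlap for 5 of 7 and 7 of 8, compared with 38.4% of all. In bulk samples such as these, fewer cells expressing a gene and less RNA per cell cannot be told apart.

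**Figure D1:**
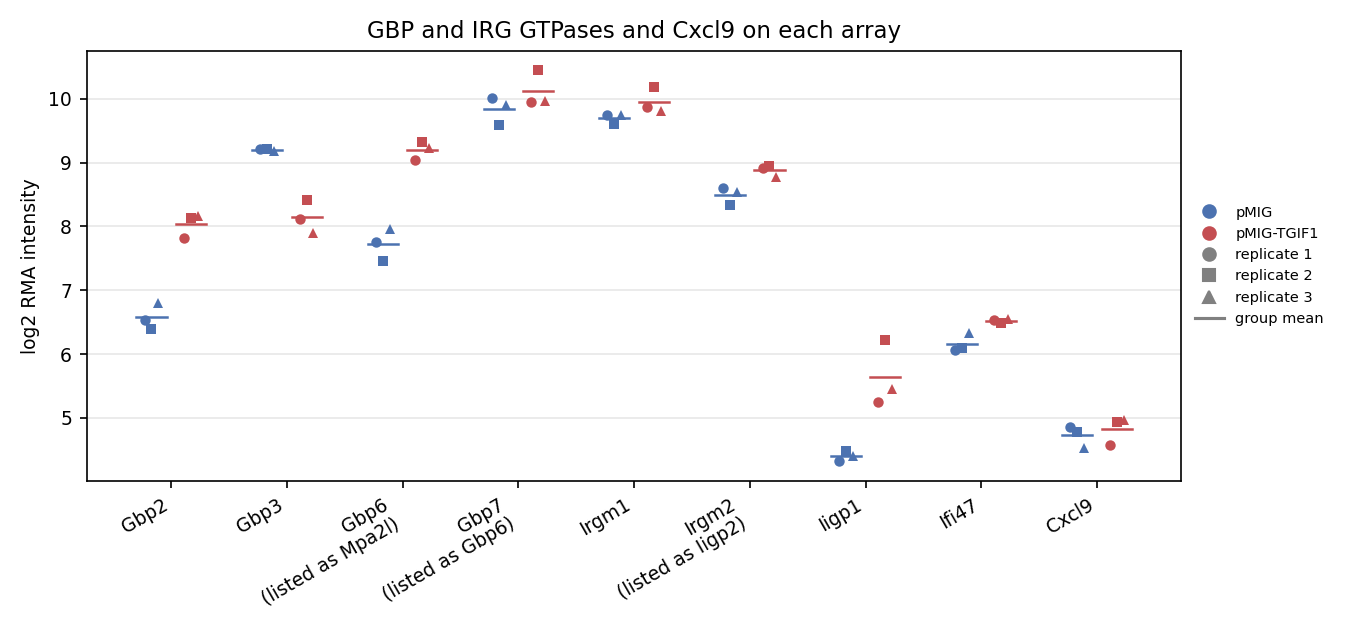
Log2 RMA intensity (vertical axis) of each of the 9 rows on each of the 6 arrays, coloured by vector, with a marker shape for each replicate and a bar at the group mean. Gbp2, Gbp6 and Iigp1 stand higher on all TGIF1 arrays, Gbp3 stands lower on all of them, and the points of Gbp7 and Cxcl9 overlap.

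Among the GBPs, Gbp2 and Gbp6 rose and Gbp3 fell. Gbp2, which coats pathogen vacuoles and helps to limit Toxoplasma in mice, read 92.8, 84.2 and 111 in pMIG and 225, 282 and 286 in the TGIF1 arrays. All TGIF1 arrays lay above all pMIG arrays, with no overlap. The increase was 2.75-fold (95% CI 2.25 to 3.37; log2 difference 1.46 ± 0.13 SE, n = 3 per group; limma adjusted p = 3.00e-05).

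Gbp6 read 217, 176 and 248 in pMIG and 527, 638 and 599 in the TGIF1 arrays. The groups stood apart, and pMIG replicate 2 was the lowest of the 6. Gbp6 rose 2.77-fold (95% CI 2.26 to 3.41; limma adjusted p = 3.10e-05).

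Gbp3 was the exception in direction. It read 591, 595 and 581 in pMIG and 277, 343 and 237 in the TGIF1 arrays. The pMIG arrays were nearly equal, and each lay above every TGIF1 array. Gbp3 fell 2.08-fold (95% CI 1.71 to 2.54; log2 difference -1.06 ± 0.13 SE; limma adjusted p = 0.000181). The calls of Gbp2, Gbp6 and Gbp3 held in all 16 alternatives run.

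Gbp7, which in mouse cells takes part in assembly of the phagocyte NADPH oxidase on pathogen vacuoles, read 1027, 768 and 960 in pMIG and 992, 1395 and 1002 in the TGIF1 arrays. TGIF1 replicate 2 stood above the rest, while the other TGIF1 arrays lay within the pMIG range. The difference was 0.29 ± 0.15 on the log2 scale (95% CI -0.05 to 0.63; limma adjusted p = 0.222), so it was not called.

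The opposite movement of Gbp2 and Gbp3, both in the GBP group of chromosome 3, was read within each array after their values were seen. The log2 ratio of Gbp2 to Gbp3 was -2.63 ± 0.22 (SD, n = 3) in pMIG and -0.11 ± 0.32 in the TGIF1 arrays, a difference of 2.52. The pair was picked for its opposite directions, so this is a description with no test. The probe sets differ, and the ratio does not show which gene was more abundant.

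Of the 4 IRGs measured among the 9 genes, the effector Iigp1, Irgm2 and Ifi47 rose, and Irgm1 was not called. Iigp1, which loads onto the Toxoplasma vacuole, read 20.0, 22.3 and 21.2 in pMIG and 37.9, 74.9 and 43.7 in the TGIF1 arrays. The groups did not overlap, but TGIF1 replicate 2 stood well above the others. Iigp1 rose 2.36-fold (95% CI 1.71 to 3.24; limma adjusted p = 0.00141), a call lost without moderation of the variance (0.0781). Its mean level was among the dimmest 30% of named probe sets.

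Irgm2 read 389, 323 and 371 in pMIG and 484, 491 and 436 in the TGIF1 arrays. Every TGIF1 array was above every pMIG array. Irgm2 rose 1.30-fold (95% CI 1.11 to 1.53; limma adjusted p = 0.0204). The call was lost without pMIG replicate 2 or 3 or TGIF1 replicate 1 or 2, with adjusted p from 0.0510 to 0.0877, and under array median centring (adjusted p = 0.0795).

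Ifi47, also known as Irgd, read 67.0, 68.5 and 80.4 in pMIG and 92.4, 89.4 and 93.6 in the TGIF1 arrays. The groups did not overlap, although pMIG replicate 3 approached the TGIF1 arrays. Ifi47 rose 1.28-fold (95% CI 1.10 to 1.49; limma adjusted p = 0.0245). The call was lost without pMIG replicate 1 or 2 or TGIF1 replicate 1 or 3, with adjusted p from 0.0526 to 0.0971, under quantile normalization (0.0851) and under array median centring (0.0957).

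Irgm1, needed in mice for resistance to mycobacteria and for control of other IRGs, read 855, 781 and 858 in pMIG and 940, 1161 and 897 in the TGIF1 arrays. All TGIF1 arrays were above all pMIG arrays, by a narrow margin. The difference of 0.26 ± 0.11 on the log2 scale (95% CI 0.00 to 0.51) did not pass the test (limma adjusted p = 0.140), and it passed in none of 16 alternatives.

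Cxcl9, the one chemokine among the 9 genes, was dim and not called. It read 29.0, 27.6 and 23.2 in pMIG and 23.9, 30.6 and 31.2 in the TGIF1 arrays. The groups overlapped, and all 6 arrays lay among low intensities. The difference was 0.10 ± 0.13 on the log2 scale (95% CI -0.19 to 0.39; limma adjusted p = 0.663), an interval that leaves room for a change of up to 1.31-fold higher. Under array median centring its sign turned, to -0.007.

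Of the other genes of the same chemokine axis, Cxcl10 fell, and Cxcl11 and Cxcr3 were not called. Cxcl10 read 231, 240 and 323 in pMIG and 146, 172 and 97.1 in the TGIF1 arrays. Each pMIG array lay above each TGIF1 array, and TGIF1 replicate 3 was the lowest. Cxcl10 fell 1.94-fold (95% CI 1.43 to 2.64; limma adjusted p = 0.00495). Cxcl11 differed by 0.12 (limma adjusted p = 0.537) and Cxcr3 by 0.09 (0.568) on the log2 scale. Cxcl11 was as dim as Cxcl9, with readings between 22.9 and 30.8.

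T and NK cells are a usual source of interferon-gamma and carry Cxcr3. The starting cells were chosen as c-kit+, and GFP-positive cells were sorted. Whether T and NK cells passed these gates was not tested. Of their 15 markers 6 lay above the dimmest 30%, and the summed intensity was 505 to 545 in pMIG and 523 to 587 in the TGIF1 arrays. Cd3d rose 1.63-fold and Cd3g 1.32-fold (limma adjusted p = 0.000623 and 0.0176), from pMIG readings of at most 21.9 and 20.2. The call of Cd3g was lost without pMIG replicate 1 (0.0723), pMIG replicate 2 (0.0712) or TGIF1 replicate 3 (0.0507). Cd3e, Cd8a, Cd8b1, Lck, Prf1 and Tbx21 lay above the dimmest 30% and were not called. Cd4, Gzma and Ncr1 were among the dimmest 30% and not called. So were Il2rb (log2 difference 0.30, limma adjusted p = 0.0510) and Klrd1 (0.20, 0.150), yet all their TGIF1 arrays lay above all pMIG arrays. For Lck all TGIF1 arrays lay below (-0.19). The groups did not overlap for 5 of the 15 markers, against 38.4% of all named probe sets. Of the 15 markers, 2 were called higher (13.3%, against 11.5% of all named probe sets) and 0 lower (13.2% of all were). At an unadjusted p under 0.05 there were 4 higher and 0 lower. None of 5 B cell markers and none of 5 stroma and endothelium markers was called by limma, and at an unadjusted p under 0.05 there were 0 and 2. Their summed intensities were 210 to 212 and 281 to 329 in pMIG, and 206 to 213 and 308 to 330 in the TGIF1 arrays. The part of other cells in the results was not tested.

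The deposited table's own comparisons give the same folds for these rows. In the authors' deposited table Gbp2 stands at 2.75 and Gbp3 at -2.08, where a minus sign marks a lower level with TGIF1. Iigp1 has 2.36 with a p-value of 0.02 in the authors' deposited table, and Cxcl9 has 1.07 with 0.56. Whether these p-values are adjusted is not given in the sources used here.

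The other GBP and IRG genes were described from a list of 21 that also holds Gbp7 and the giant GTPase Gvin1. Of the 21, 15 have a probe set under their own name. Of these, 12 rose and none fell by limma (0 lower at an unadjusted p under 0.05), beside 11.5% of all named probe sets higher and 13.2% lower, and the list's median log2 difference was 1.10. In a second group of GBP genes, on chromosome 5, all 5 measured members rose, from 2.31-fold for Gbp11 to 3.55-fold for Gbp8. The call of Gbp11 was lost without moderation of the variance (adjusted p = 0.0718). Gbp4 read 68.6, 55.7 and 57.6 in pMIG and 174, 256 and 209 in the TGIF1 arrays, with no overlap (log2 difference 1.80, limma adjusted p = 1.34e-05). Gbp9 rose by 1.73 on the same scale (limma adjusted p = 1.93e-05).

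The 5 GBP genes measured on chromosome 3 did not move together. Gbp2 and Gbp2b were called higher, Gbp3 lower, and Gbp5 and Gbp7 were not called. Gbp5, which promotes inflammasome assembly, read 41.6, 46.9 and 41.8 in pMIG and 42.2, 42.9 and 45.5 in the TGIF1 arrays. The groups overlapped throughout (log2 difference 0.00, 95% CI -0.20 to 0.21; limma adjusted p = 0.986). Gbp2b, listed as Gbp1, differed by 0.33 (limma adjusted p = 0.0294), from dim readings of 21.9 to 31.6. Its call was lost without pMIG replicate 2 (0.116), pMIG replicate 3 (0.0725) or TGIF1 replicate 1 (0.0953), and under array median centring (0.119).

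**Figure D2:**
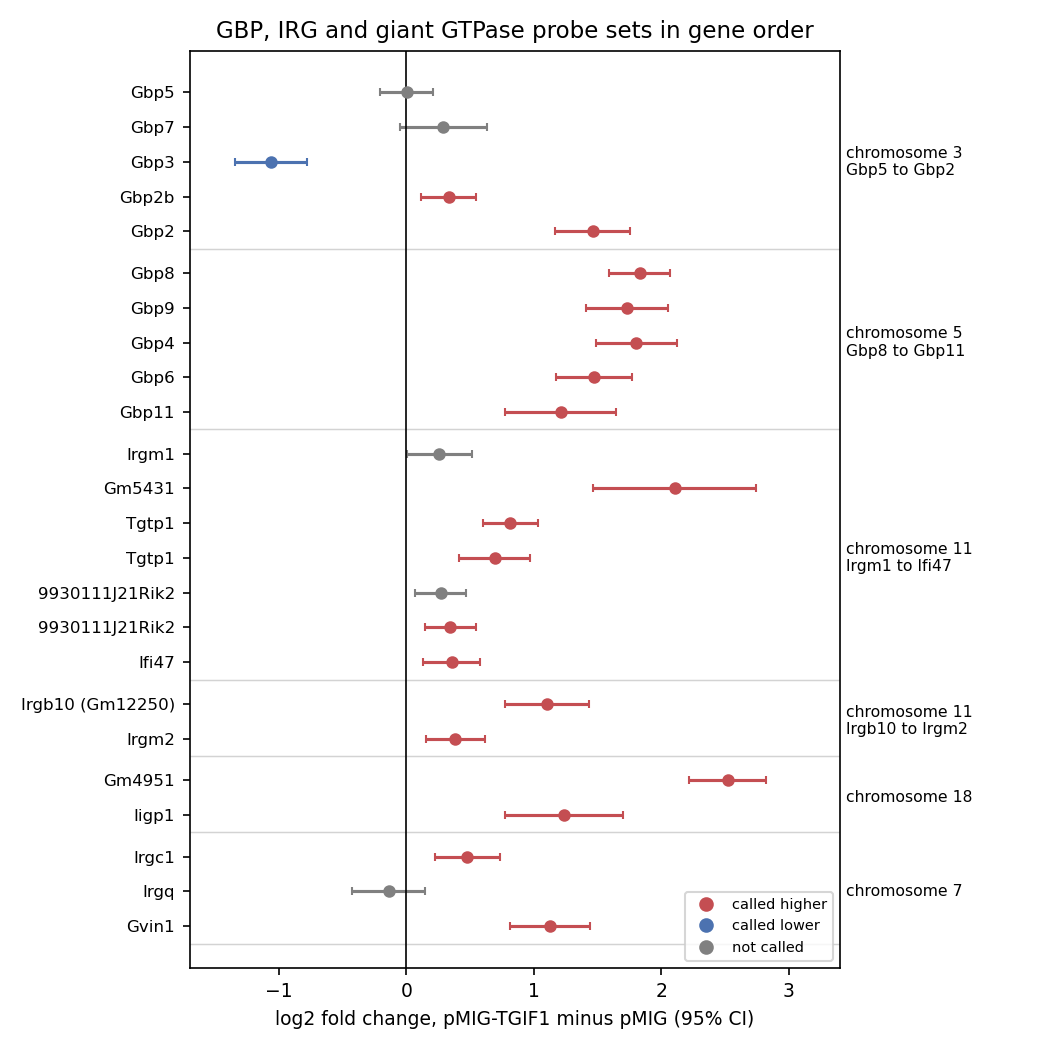
Log2 fold change, TGIF1 minus pMIG (horizontal axis), with its 95% confidence interval for each GBP, IRG and giant GTPase probe set, in gene order and coloured by call. All probe sets of the chromosome 5 group lie to the right of 0, while the chromosome 3 group spans -1.06 to 1.46.

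The IRG genes mostly rose, by widely different amounts. Gm4951, next to Iigp1 on chromosome 18, read 55.8, 47.3 and 59.0 in pMIG and 255, 347 and 330 in the TGIF1 arrays. It stood far apart between groups and rose 5.73-fold (95% CI 4.65 to 7.05; limma adjusted p = 1.04e-06). Gm5431 rose 4.30-fold (95% CI 2.76 to 6.69; limma adjusted p = 0.000389), with pMIG arrays spread from 35.9 to 95.6, and its call was lost without moderation (0.0575).

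The effectors Tgtp1 and Irgb10 also rose. Tgtp1, known as Irgb6, rose by 0.82 and 0.69 on the log2 scale on its 2 probe sets (limma adjusted p = 0.000172 and 0.00216). Irgb10, listed under Gm12250 in RefSeq and known for disrupting bacterial membranes, rose 2.15-fold (limma adjusted p = 0.000344). The probe sets of 9930111J21Rik2 disagreed in call, at 0.34 (limma adjusted p = 0.0169) and 0.27 (0.0508). The first of these calls was lost without pMIG replicate 1 or 2 or TGIF1 replicate 2, with adjusted p up to 0.0691. Array median centring lost it too (0.0811).

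On chromosome 7, Gvin1 rose 2.18-fold (limma adjusted p = 0.000232), Irgc1 rose 1.39-fold (0.0106), and Irgq was not called (log2 difference -0.14, adjusted p = 0.530). Irgc1, best known from testis, lost its call without pMIG replicate 3 (adjusted p = 0.0541). In all, of 24 probe sets of 22 GTPase genes, members included, 18 were called higher, 1 lower and 5 not. Of all named probe sets, 11.5% were higher and 13.2% lower. The median log2 difference of the 24 was 0.75. Tgtp1 and 9930111J21Rik2 are each counted with more than 1 probe set. GBP and IRG genes are close copies of each other, so a probe set may read more than 1 gene, and the differences between neighbours are uncertain for that reason.

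The arrays within a group also ranked alike across the family. TGIF1 replicate 2 was the highest of its group for 15 of the 24 probe sets (62.5%), against 27.6% of all named probe sets. pMIG replicate 2 was the lowest of its group for 17 of them (70.8%), against 34.3% of all. These shares describe arrays within groups and were not tested.

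Upstream of the GTPases, the kinase Jak2 and the factor Irf1 rose, while the ligand and the first receptor chain were not called. Of 21 genes of interferon-gamma signalling, 9 rose (42.9%, against 11.5% of all) and none fell by limma (0 lower at an unadjusted p under 0.05, against 13.2% of all called lower), with a median log2 difference of 0.22. Ifng itself read 28.1, 31.7 and 30.8 in pMIG and 34.8, 27.9 and 31.5 in the TGIF1 arrays. These dim readings overlapped (log2 difference 0.05, limma adjusted p = 0.792).

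Ifngr1 differed by -0.08 on the log2 scale (limma adjusted p = 0.627) and Ifngr2 by 0.25 (0.0606). Ifngr2 was called higher in 4 of 16 alternatives, with an adjusted p down to 0.0237. Jak2 read 424, 476 and 536 in pMIG and 1044, 1022 and 1200 in the TGIF1 arrays. The groups were separated by a wide gap, and Jak2 rose 2.28-fold (95% CI 1.91 to 2.71; limma adjusted p = 4.26e-05). Jak1 rose 1.23-fold (limma adjusted p = 0.0320). Its call was lost without any 1 of pMIG replicates 1, 2 and 3 and TGIF1 replicates 2 and 3 (adjusted p 0.0711 to 0.103). It was also lost with the replicate number as a block (0.0774) and under array median centring (0.143).

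Irf1, which binds ISRE, read 187, 150 and 163 in pMIG and 295, 359 and 354 in the TGIF1 arrays. All TGIF1 arrays were higher, and Irf1 rose 2.02-fold (95% CI 1.68 to 2.42; limma adjusted p = 0.000141). Irf8, a factor of monocyte development, differed by 0.18 (limma adjusted p = 0.191), and the inhibitor Socs1 by 0.03 (0.864).

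The remaining signalling genes that rose comprise factors and feedback inhibitors. Nlrc5, the transactivator of MHC class I genes, rose by 1.31 on the log2 scale, Usp18 by 1.10, Batf2 by 0.95, Socs3 by 0.82, Irf2 by 0.78 and Irf9 by 0.48 (limma adjusted p 1.34e-05 to 0.00272). Usp18 restrains the type I interferon receptor, and Socs3 restrains cytokine receptor signalling.

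**Figure D3:**
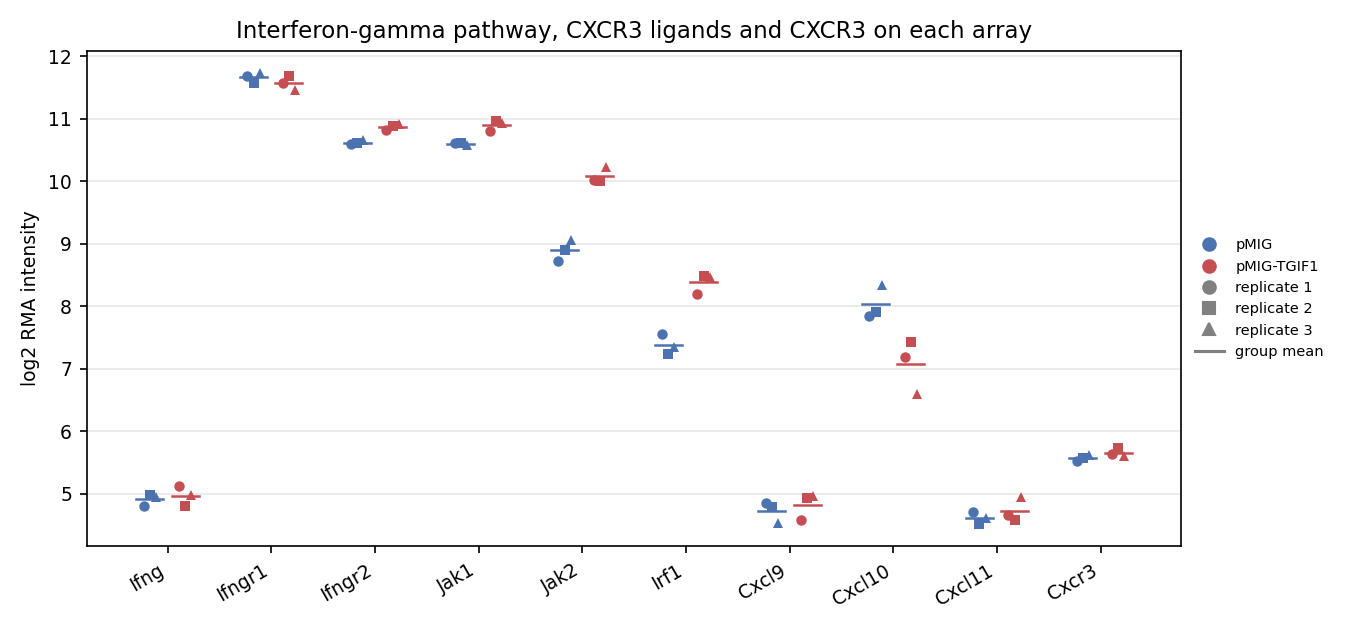
Log2 RMA intensity (vertical axis) on each of the 6 arrays, coloured by vector, with a bar at the group mean. The genes shown are Ifng, Ifngr1, Ifngr2, Jak1, Jak2, Irf1, Cxcl9, Cxcl10, Cxcl11 and Cxcr3. Jak2 and Irf1 are higher on all TGIF1 arrays and Cxcl10 is lower on all of them, while the points of Ifng, Ifngr1 and Cxcl11 overlap.

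Of 30 other genes that interferon-gamma induces, 13 rose (43.3%, against 11.5% of all named probe sets) and 4 fell, a share close to the 13.2% of all that were lower. Their median log2 difference was 0.27. Acod1, listed as Irg1, makes itaconate in macrophages and read 160, 157 and 171 in pMIG and 1146, 1127 and 1135 in the TGIF1 arrays. It rose 6.98-fold (limma adjusted p = 6.51e-08), with closely spaced arrays in both groups.

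Cd74, the MHC class II chaperone, rose 3.10-fold, Ido1, which breaks down tryptophan, 3.02-fold, and Cybb, the catalytic NADPH oxidase subunit, 1.98-fold (limma adjusted p 6.88e-06 to 0.000331). The class II genes H2-Aa, H2-Ab1 and H2-Eb1 were not called. They differed by 0.18, 0.11 and 0.26 on the log2 scale (limma adjusted p = 0.411, 0.608 and 0.183), with overlapping groups. Nos2, the inducible nitric oxide synthase, read 49.1, 35.1 and 40.7 in pMIG and 238, 305 and 1082 in the TGIF1 arrays. The groups did not overlap, but TGIF1 replicate 3 was far above the others, and the fold of 10.4 has a wide interval of 5.28 to 20.4 (limma adjusted p = 0.000284). Without that array it was 6.53-fold. The 4 genes that fell were Cxcl10, the adhesion molecule Icam1 (1.70-fold), the peptide transporter Tap2 (1.37-fold) and Wars (1.32-fold).

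Most listed genes stimulated by type I interferon, which acts through the ISRE, also rose. Of 35, 29 rose (82.9%, against 11.5% of all) and 1 fell (13.2% of all did), with a median log2 difference of 0.85. Ifi44 rose 10.0-fold, Ifi203 6.46-fold, Ifi27l2a 2.90-fold, Rtp4 2.81-fold, Stat2 2.53-fold and Bst2 2.17-fold (limma adjusted p 1.44e-07 to 2.55e-05). The gene that fell was Sp100 (1.29-fold, limma adjusted p = 0.0394), and its call was lost without any 1 of pMIG replicates 1, 2 and 3 and TGIF1 replicate 1 (adjusted p 0.0893 to 0.123). Many genes of either list respond to both interferons.

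Autophagy conjugation genes, whose products load GBPs and IRGs onto vacuoles, and inflammasome genes made a list of 15, of which 5 rose (33.3%, against 11.5% of all) and 1 fell, below the 13.2% of all. The median log2 difference was 0.15. Nlrp3, an inflammasome sensor, rose 2.59-fold, and the LC3 and Gabarap genes Map1lc3a, Map1lc3b and Gabarap rose 1.73-fold, 1.69-fold and 1.59-fold. Aim2, a DNA sensor, rose 1.38-fold (limma adjusted p 2.02e-05 to 0.0179 for these genes), and its call was lost without pMIG replicate 1 (0.0633), pMIG replicate 2 (0.0786) or TGIF1 replicate 2 (0.0600). Atg12 fell 1.30-fold (limma adjusted p = 0.0164), a call lost without pMIG replicate 3 (0.0794) or TGIF1 replicate 1 (0.0572).

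**Figure D4:**
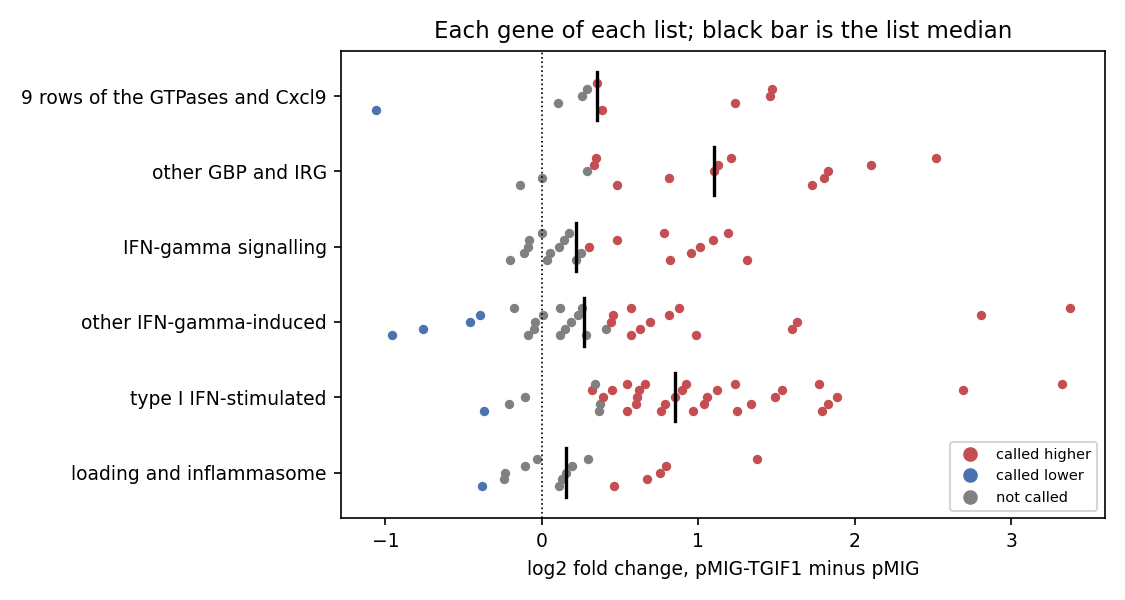
Log2 fold change, TGIF1 minus pMIG (horizontal axis), of each gene in each list, coloured by call, with a black bar at the list median. The medians are 1.10 for the other GBP and IRG genes, 0.85 for the type I list, 0.27 for other interferon-gamma-induced genes and 0.22 for the signalling genes.

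Gbp2, Iigp1 and Ifi47 are the 3 rows called higher by deposited symbol, so Gbp6 and Irgm2 were not used. The genes most like these 3 were sought by Pearson correlation of log2 intensity with their mean profile over the 6 arrays. Candidates were probe sets outside the lists that differed between groups by at least 1 on the log2 scale. Predicted genes and clone names, such as Gm and Rik symbols, were left out. Among the 994 candidates, the closest were Ifi207 (r = 0.995), Klra17 (0.992), Nlrp1c-ps (0.991), Spef2 (0.990) and Cd200r1 (0.989). The 6 arrays fall into 2 groups, so these values mostly repeat the difference between groups, and 342 of the candidates had r above 0.95.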

How the data were processed

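RNA of 6 samples was measured on 6 arrays. The deposited values are linear probe set intensities, which the authors made with RMA and Partek, per the submitters' processing notes; versions, settings and the genome build are not given in the sources used here. The deposited table also holds the authors' signed fold change and p-value, whose test is not given there. Both deposited tables hold the same intensities, and no column of per-sample values was left unused.

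Groups came from the sample titles. Symbols were updated through RefSeq accessions, current symbols and synonyms, which changed 4203 of 25123. The other 3730, which have no symbol, were not tested. Log2 of the deposited intensities was fitted with limma 3.58.1 in R 4.3.3, TGIF1 minus pMIG, with default moderation and Benjamini-Hochberg adjustment over all 25123 named probe sets. A gene was called at an adjusted p under 0.05, on its probe set with the highest mean level. The fit was tested on simulated data. The number of arrays limits the precision, and arrays give no read depth.

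The members and lists were chosen with earlier results of these data known. The text names all members, every other GBP and IRG gene measured, Tgif1, and set signalling and Cxcr3 genes. It also names up to 6 genes of each other list by smallest p, and genes behind small counts. Further markers are named for their level or for groups that did not overlap, and the 5 genes most like the members are given. MHC class II genes are named beside Cd74. Lists covered signalling, interferon-gamma-induced, type I, loading and Cxcr3 genes, and markers of myeloid, T and NK, B, and stroma and endothelium cells. Alternatives changed moderation, trend, normalization, centring, filters, weights, the replicate block, the deposited table used, naming and single arrays. Promoter sequences are RefSeq's. The values of 1 signalling gene are not reported here.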

Additional observations from a re-analysis of the deposited data

How the results depend on the processing

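Of 37 single probe sets followed, 23 kept their call under every alternative run and 14 changed it under 1 or more; no called difference changed sign. By rule, 3 members were called higher and 1 lower. Matching by current gene name, added after seeing the data, gave 5 higher. Without moderation of the variance, 1 member, 8 of the 15 other GTPases, 12 signalling genes and 8 other interferon-gamma-induced genes were higher. In that fit no type I or loading gene was lower (0 each), and 1754 probe sets were higher and 1647 lower in all. Array median centring gave 1 signalling gene and 3 loading genes lower, and 2179 probe sets higher and 4870 lower. Leaving out 1 array at a time gave 2 to 3 members higher and 1 to 1 lower, 10 to 12 other GTPases, 8 to 9 signalling genes, 13 to 14 other induced genes, 25 to 29 type I genes and 4 to 5 loading genes higher, and 4 to 4 other induced, 0 to 1 type I and 0 to 2 loading genes lower. Over all probe sets it gave 2323 to 2724 higher and 2537 to 3187 lower. The labels do not say whether the replicate numbers pair the samples. Correlations of same-numbered deviations were -0.19, -0.11 and -0.049, and with 3 arrays per group they cannot decide it. With the replicate block, 3 members were higher and 1 lower, type I genes lower went to 0, and 2579 probe sets were higher and 2957 lower. Without moderation, calls were lost for Iigp1 (adjusted p = 0.0781), Irgm2 (0.0833), Ifi47 (0.0753), Gbp2b (0.0679), Gbp11 (0.0718), Gm5431 (0.0575), Irgc1 (0.0853), 1 Tgtp1 probe set (0.0590) and Cxcl10 (0.116). The cause of these shifts was not tested. The 3 arrays per group, the dim readings of Cxcl9, Cxcl11, Ifng and Iigp1, and probe sets shared by close copies limit what can be read from these values.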
